A study of Mus musculus with 4 samples.

Results

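T cells were gated from single-cell transcriptomes of DLA tumors by their Cd3 and T cell receptor transcripts, and 108 of 4404 kept cells (2.45%) met the gate. A kept cell had at least 200 detected genes and at most 10% mitochondrial transcripts. A T cell then had at least 2 unique molecular identifiers (UMIs, counted transcripts) summed over Cd3d, Cd3e, Cd3g, Trac, Trbc1 and Trbc2. It also had at most 2 UMIs of Krt8 and Krt18, fewer than 2 of Cd79a, Cd79b and Ms4a1, and fewer than 4 of Lyz2, Tyrobp and Fcer1g. The members were thus chosen by these measured UMI counts, and their difference from other cells in these genes is a description and was not tested.

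DLA cells, labelled a lymphoma, had been injected intraperitoneally into Swiss albino mice, and the tumors were digested with enzymes and depleted of red blood cells by lysis before capture. The Control libraries came from mice labelled untreated, and the Treated libraries from mice given SP11, an HSP90 inhibitor, orally at 30 mg/kg for 17 days. Both groups carried the same tumor line, and the labels name no genetic modification. Each group had 2 libraries, described by the study as independent sets; the age of the animals and the number pooled per library were not given in the sources used here. Where 4 values follow one another without names, they are those of Control 1 and 2 and then Treated 1 and 2.

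T cells recognise antigen through a receptor of paired chains (alpha with beta, or gamma with delta) that signals through the Cd3 proteins. Cd8 marks cells that read peptides on MHC class I and often kill their targets with granzymes and perforin, while Cd4 marks helper and regulatory cells that read MHC class II. Naive and central memory cells keep transcription factors such as Tcf7, Lef1 and Klf2, whereas effector cells carry transcripts such as Ccl5, a chemokine, and Nkg7, a protein of cytotoxic granules.

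The 4 libraries held 595 to 2277 barcodes, of which 566 to 1831 were kept, with 9646197 to 13632163 UMIs in all. Although the line is labelled a lymphoma, most kept cells carried 3 or more UMIs of Krt8 and Krt18, keratins of epithelia: only 6.88%, 4.95%, 29.4% and 45.8% of kept cells had 2 or fewer. The T cells were among the shallowest cells, with a median of 825 UMIs and a minimum of 507, against library medians of 7167 to 16657 UMIs in the other kept cells. Their medians were 626, 933, 619.5 and 856 UMIs, where the value of Control 2 is that of its only T cell. The lowest total of any barcode was 500 to 516 UMIs per library, and 7 of 10, 0 of 1, 10 of 16 and 13 of 81 T cells had under 700, so that many lay near the floor of the deposited matrices. Kept cells of different libraries shared 54 to 215 barcodes per pair of libraries. Of the T cells, 34 had a barcode that was also a kept cell of another library, but 0 barcodes were T cells in more than 1 library.

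Control 1 held 10 T cells among 916 kept cells, a share of 1.09% (95% exact binomial interval 0.525 to 2.00%). Control 2 held a single T cell among 566 kept cells, or 0.177% (0.00447 to 0.980%). The share was 0.874% in Treated 1, with 16 of 1831 cells (0.50 to 1.42%), and 7.42% in Treated 2, with 81 of 1091 cells (5.94 to 9.14%). Treated 2 therefore contributed 75% of all T cells and stood above the other 3 libraries, while Treated 1 lay between the Control libraries. The group means were 0.634% ± 0.647 (SD, n = 2) in Control and 4.15% ± 4.63 (SD, n = 2) in Treated, a difference smaller than the spread between the Treated libraries (two-sided exact permutation test, p = 0.667; 2 against 2 libraries cannot give less than 0.33). Without Treated 2 the difference dropped from 3.51 to 0.240 percentage points. Leaving out cells with a barcode shared between libraries gave shares of 1.47%, 0.274%, 1.02% and 6.71%. All intervals here cover counting error only, and nothing in the labels says whether the 2 libraries of a group came from different mice.

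**Figure D1:**
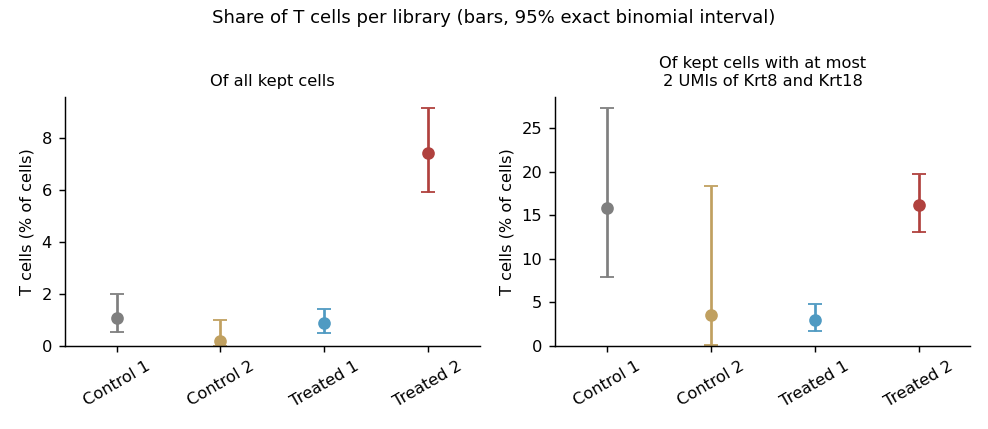
T cells as a percentage of all kept cells (left) and of kept cells with at most 2 UMIs of Krt8 and Krt18 (right) in each library; points are the share and bars its 95% exact binomial interval. Treated 2 stands at 7.42% of all kept cells, above the other 3 libraries, but with the other denominator Control 1 at 15.9% and Treated 2 at 16.2% lie together.

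This difference was not kept with another denominator. Among kept cells with at most 2 UMIs of Krt8 and Krt18, T cells made up 15.9% in Control 1 (10 of 63 cells, 95% exact interval 7.88 to 27.3%) and 3.57% in Control 2 (1 of 28, 0.0904 to 18.3%). The corresponding shares were 2.97% in Treated 1 (16 of 538, 1.71 to 4.78%) and 16.2% in Treated 2 (81 of 500, 13.1 to 19.7%). Each group thus held a library near 16% and a library near 3%, and the mean of Treated minus Control was -0.135 percentage points (two-sided exact permutation test, p = 1). This denominator was chosen after the data were seen.

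At the boundary of the gate, 2, 0, 7 and 12 T cells had exactly 2 UMIs of the Cd3 and T cell receptor genes, and just outside the threshold, with 1 such UMI and the rest of the gate met, lay 1, 1, 12 and 4 cells. The remaining conditions removed 40 cells with 2 or more of these UMIs, 23 of them for keratin transcripts alone, 9 for B cell transcripts alone and 4 for myeloid transcripts alone. No keratin UMI was present in 78 of the T cells, namely 3 of 10, 1 of 1, 13 of 16 and 61 of 81. Scrublet, a doublet caller, marked 0 of the T cells and 0.928 to 8.13% of kept cells per library.

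The genes of the receptor complex were counted by the gate and are given here as a description. Cd3d (chromosome 9: 44981786 to 44987339, mm10), a signalling chain of the complex, had 17, 2, 15 and 109 UMIs and was seen in 76 of 108 cells. Its level was 2380, 2144, 1360 and 1322 CPM (UMIs per 1000000 UMIs of the same cells), against 0.104 to 3.08 CPM in the other kept cells. Trbc2 (chromosome 6: 41546730 to 41548352), the more frequent of the beta-chain constant genes, had 4, 0, 17 and 157 UMIs and was seen in 77 cells. Trac (chromosome 14: 54220521 to 54224206), the alpha-chain constant gene, had only 1, 2, 7 and 60 UMIs, in 45 cells. Cd3d was thus present in every library, whereas Trbc2 and Trbc1 were at 0 in the single cell of Control 2.

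Individual T cells were sampled too thinly to read a receptor. Trbc2 alone was seen in 52 cells, Trbc1 alone in 16, both in 25 and neither in 15. A cell makes 1 productive beta chain as a rule, and both genes share most of their constant sequence, so the split of reads between them is uncertain. In total 10 UMIs came from variable genes of the alpha and beta loci; those of Treated 2 fell on 5 beta genes (Trbv1, Trbv2, Trbv13-1, Trbv13-2 and Trbv16) and 2 alpha genes, with at most 2 UMIs per gene. Trdc, the constant gene of the delta chain, had 0, 0, 1 and 2 UMIs, each of the 3 cells also had a beta-chain transcript, and the gamma constant genes were seen in 6 cells, all of Treated 2. Of the 17 genes listed for gamma delta T cells, 14 were in the files and 9 were detected in the T cells.

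Outside the genes of the gate, the 15 genes with the highest ratio to other kept cells in Treated 2, the only library with at least 20 T cells, were led by Ccl5, Nkg7, Bcl11b, Prkcq and Lef1. Ccl5 (chromosome 11: 83525778 to 83530518) exceeded the other kept cells by 8.24 on the log2 scale and Nkg7 (chromosome 7: 43437073 to 43438249) by 8.23. Bcl11b, a transcription factor that maintains T cell identity, stood 8.10 higher and was seen in 36 cells. Prkcq, a kinase of receptor signalling, stood 7.96 higher, and Lck, the kinase that starts this signalling, 7.42. Ms4a4b, a membrane protein of T cells, stood 7.79 higher, with 5, 0, 12 and 120 UMIs in the 4 libraries. Cxcr6, a chemokine receptor of tissue-resident and effector T cells, stood 7.65 higher, and further genes were Gm2682, Camk4, Tnfrsf4, Sntb1, Tox and Tnik, at 7.53 to 7.04, with Lef1, a factor of naive cells, at 7.89. These values are log2 ratios of CPM with 1 CPM added to each side, and they describe the cells that the gate selected. They compare T cells mostly with tumor cells, as keratin-positive cells held 10876250 of the 12942525 UMIs of the other kept cells. Myeloid cells of Treated 2 had Ccl5 at 199 CPM and Nkg7 at 85.0 CPM, against 23.3 and 4.33 CPM in all other kept cells. Its B cells had 0 and 3.88 CPM.

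Of the 7 markers that were used to name the population, all were detected in Control 1, Treated 1 and Treated 2. The Control 2 cell lacked Trbc2 and Ms4a4b. Of these markers, Cd3d, Cd3g, Trac and Trbc2 are genes of the gate. The list of 25 genes of receptor signalling includes the 6 genes of the gate, so its level was partly set by the gate. All 25 were seen in at least 1 T cell, and their summed level was 10221, 7503, 10063 and 11026 CPM. The other kept cells held 92.4 to 175 CPM of the same genes. Skap1, an adaptor of the receptor, was at 60.9 to 86.9 CPM in the keratin-positive cells against 0, 1072, 725 and 958 CPM in the T cells. The 25 structural and Gimap genes summed to 12602, 11790, 11876 and 14520 CPM.

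**Figure D2:**
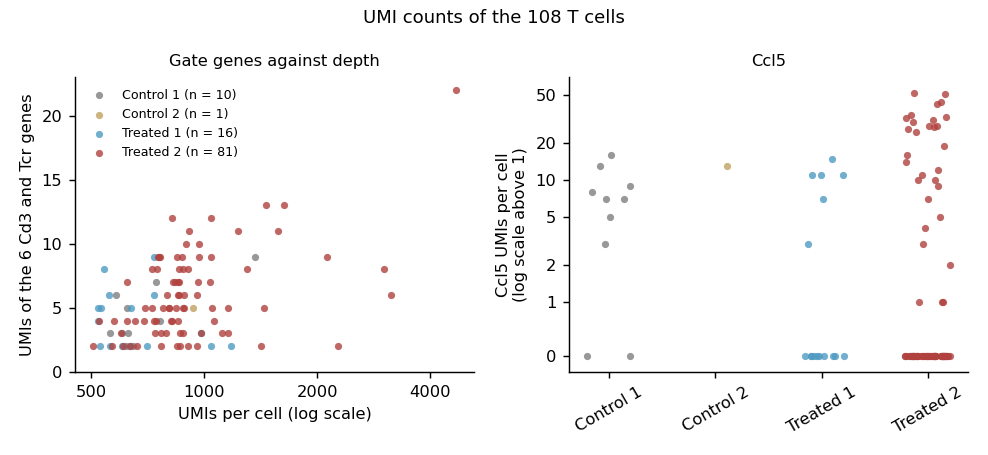
Left, UMIs of the 6 gate genes against total UMIs (log scale) for each of the 108 T cells; right, Ccl5 UMIs per cell by library, on a scale that is logarithmic above 1. The median T cell has 825 UMIs in total, and Ccl5 is absent in 63 cells and at 10 or more UMIs in 28 of the 45 with any.

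Ccl5 split the T cells into cells with many transcripts and cells with none. It accounted for 68, 13, 58 and 608 UMIs, or 9521, 13934, 5258 and 7375 CPM. It was seen in 8 of 10, 1 of 1, 6 of 16 and 30 of 81 cells, and 63 cells had none. Positive cells seldom had few copies: 28 of the 45 had 10 or more UMIs, only 4 had 1 or 2, and the largest count was 52. Among B cells gated in the same libraries, which should lack it, 1 of 156 in Treated 1 (0.641%, median 841 UMIs) and 0 of 144 in Treated 2 (median 1581.5 UMIs), which allows a share of up to 2.08%, had a Ccl5 UMI. Among the deeper keratin-positive cells, with medians of 8675 to 19672 UMIs, 0.755 to 7.24% did, and among the gated myeloid cells 2.78%, 0% (of 20 cells, which allows up to 15%), 1.2% and 5.66%. Nkg7 was seen in 47 cells, 36 of which also had Ccl5.

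A cytotoxic T cell was defined as one with 2 or more UMIs over Nkg7, Ccl5, Gzma, Gzmb, Gzmk and Prf1. By this count 8 of 10 cells of Control 1 were cytotoxic, or 80% (95% exact interval 44.4 to 97.5%). The single cell of Control 2 was cytotoxic as well (100%, 2.5 to 100%). In Treated 1 the share was 56.3%, with 9 of 16 cells (29.9 to 80.2%), and in Treated 2 it was 38.3%, with 31 of 81 cells (27.7 to 49.7%). Both Control libraries stood above both Treated libraries, but the interval of Control 1 overlapped that of each Treated library, and Control 2 rests on 1 cell. The means were 90% ± 14.1 (SD, n = 2) in Control and 47.3% ± 12.7 (SD, n = 2) in Treated (two-sided exact permutation test, p = 0.33, the smallest this design allows). After each cell was thinned to 400 UMIs, which left out 0 cells, the shares were 80%, 100%, 43.8% and 32.1%. In the B cells of Treated 1 and Treated 2, 0.641% and 0% met the same count, where 0 of 144 cells allows up to 2.08%, and in the keratin-positive cells 0 to 0.571% did. The highest such share was in the myeloid cells of Treated 2, at 3.3% (7 of 212 cells, median 1648 UMIs). Those myeloid cells also held 28 UMIs of Gzma and 4 of Ncr1, a gene of natural killer cells. The group difference of -42.7 percentage points became -1.53 when at least 500 genes per cell were required. That setting left 1, 1, 2 and 49 T cells in the libraries.

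**Figure D3:**
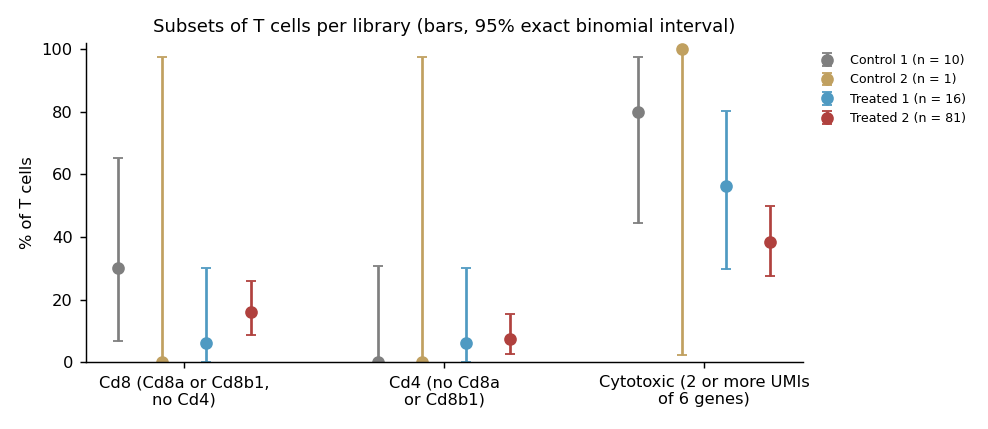
Percentage of T cells that met the Cd8, Cd4 or cytotoxic definition in each library, with 95% exact binomial intervals as bars; the number of T cells per library is in the legend. The cytotoxic share runs from 38.3% in Treated 2 to 100% in Control 2, where it rests on 1 cell, and the Cd8 and Cd4 intervals of all 4 libraries overlap.

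The cytotoxic call rested on Ccl5 and Nkg7 more than on the granzymes. Gzmb, a protease of cytotoxic granules, had 5 UMIs in Control 1 and 13 in Treated 2 and 0 in the other libraries. Gzmk had 1, 1, 0 and 5 UMIs, Gzma 2 UMIs in Control 1 alone, and Prf1, perforin, 2 UMIs in Treated 2 alone. A granzyme or perforin transcript was seen in 17 of 108 cells: 4, 1, 0 and 12. Ifng, the effector cytokine, had 2 UMIs in 1 cell. Of the 49 cytotoxic cells, 34 had 10 or more UMIs of the 6 genes and 4 exactly 2, and 11 T cells lay just outside with 1.

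Coreceptor transcripts were rare, and 84 of 108 T cells showed neither Cd4 nor Cd8. Cd8 T cells had a UMI of Cd8a or Cd8b1 and none of Cd4, and Cd4 T cells the reverse. Control 1 held 3 Cd8 cells of 10 (30%, 95% exact interval 6.67 to 65.2%) and Control 2 none of 1. Treated 1 held 1 of 16 (6.25%, 0.158 to 30.2%) and Treated 2 held 13 of 81 (16.05%, 8.83 to 25.9%). Cd4 T cells numbered 0 of 10 (0 to 30.8%), 0 of 1, 1 of 16 (6.25%, 0.158 to 30.2%) and 6 of 81 (7.41%, 2.77 to 15.4%), and no T cell had both. With 3 counts as the limit that a count of 0 allows, the Cd4 share of Control 1 could reach 30%. The Cd8 means were 15% ± 21.2 in Control and 11.1% ± 6.93 in Treated (SD, n = 2 each; two-sided exact permutation test, p = 1), and the Cd4 means 0% and 6.83% ± 0.818 (SD, n = 2; exact permutation test, p = 0.33). After thinning to 400 UMIs the Cd8 shares were 20%, 0%, 6.25% and 8.64%, and the Cd4 shares 0%, 0%, 0% and 3.70%. In the B cells of Treated 2 0 of 144 met the Cd8 definition, which allows up to 2.08%, and 0.694% met the Cd4 definition.

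Most Cd8 T cells were cytotoxic, but most cytotoxic cells had no coreceptor transcript. Across libraries 15 of 17 Cd8 T cells and 1 of 7 Cd4 T cells met the cytotoxic count, as did 33 of the 84 with neither coreceptor. In Treated 2, Ccl5 had 233 UMIs in the 13 Cd8 cells, 4 in the 6 Cd4 cells and 371 in the 62 others, and Nkg7 had 55, 7 and 70. Ms4a4b was seen in 12 of the Cd8 cells and all 6 Cd4 cells. Klf2 was seen in 3 Cd8 and 4 Cd4 cells, and Tcf7 in 0 and 2. No library held at least 10 cells of both subsets, so no model was fitted between them.

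Naive and memory genes had the opposite distribution to the cytotoxic genes. Only Treated 2 held at least 10 cytotoxic and 10 other T cells, so the comparison that follows is of the 31 and 50 cells of that library, without a test, with 95% exact counting intervals of the ratio of CPM outside the hemoglobin genes. These intervals take each UMI as independent. They leave out the spread between cells and between libraries, so they are too narrow to serve as a test. Median depth was 858 UMIs in the cytotoxic cells and 854 in the others. Of 743 genes with at least 15 UMIs that the definitions did not use, 60 (8.08%) were at least 2-fold higher and 54 (7.27%) at least 2-fold lower in the cytotoxic cells, with a median ratio of 0.994. Of the 8 naive and memory genes among them, 0 were 2-fold higher and 6 were 2-fold lower, with a median ratio of 0.361. Over all 19 genes of this list there were 63 UMIs in the cytotoxic and 198 in the other cells, a ratio of 0.422 (0.312 to 0.563).

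Tcf7, a transcription factor of naive and stem-like memory cells, had 1 UMI in the cytotoxic and 16 in the other T cells of Treated 2 (ratio 0.0828, 95% counting interval 0.00198 to 0.533). Klf2, which keeps naive cells in circulation, had 6 and 37 UMIs, and was seen in 5 of 31 against 26 of 50 cells (ratio 0.215, 0.0741 to 0.514). Foxp1, a factor of quiescence, had 5 and 26 UMIs (0.255, 0.0764 to 0.674), and Lef1 had 9 and 30 (0.398, 0.166 to 0.859). Il7r, the receptor subunit for the survival cytokine IL-7, had 6 and 22 UMIs, as had Satb1, a chromatin organiser of T cells (0.361, 0.120 to 0.919 for each). These 6 genes were lower in the cytotoxic cells, whereas Bach2 and Rgs10 differed by less than 2-fold. In Treated 1, the same list had 5 UMIs in 9 cytotoxic cells and 14 in 7 others, a ratio of 0.297 (0.0838 to 0.873). The list was thus lower in the cytotoxic cells of both Treated libraries. A UMI of Lef1, Tcf7, Satb1, Bach2, Foxp1 or Il7r was present in 18 of 31 cytotoxic and 39 of 50 other cells of Treated 2, in 2 of 9 and 3 of 7 of Treated 1, and in 4 of 8 and 1 of 2 of Control 1.

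**Figure D4:**
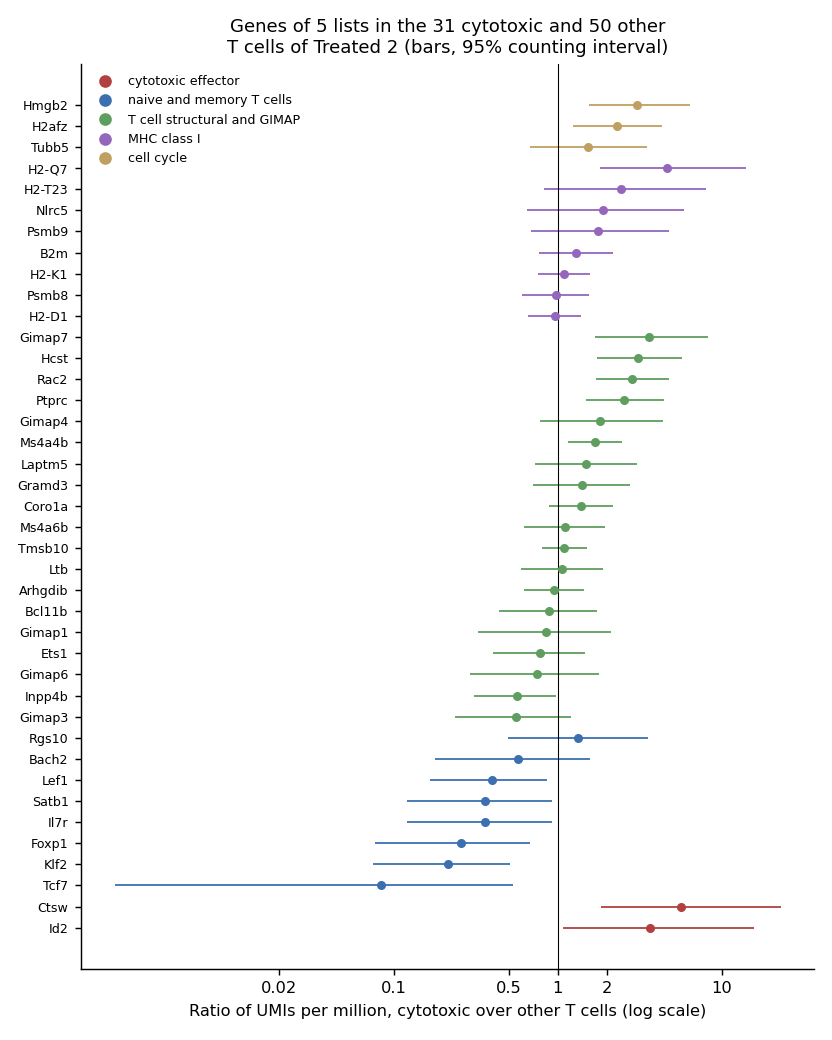
Ratio of CPM in the 31 cytotoxic over the 50 other T cells of Treated 2 (log scale) for the genes of 5 lists with at least 15 UMIs, colored by list, with 95% counting intervals as bars. Naive and memory genes such as Tcf7 (0.0828) and Klf2 (0.215) lie to the left, and Ctsw (5.63) and Gimap7 (3.58) to the right.

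On the cytotoxic side, effector genes that did not enter the definition were higher as well. The 19 remaining genes of the effector list had 70 UMIs in cytotoxic and 16 in other T cells of Treated 2, a ratio of 5.80 (95% counting interval 3.33 to 10.7), and 18 and 3 in Treated 1, a ratio of 4.99 (1.46 to 26.5). Ctsw, cathepsin W of cytotoxic lymphocytes, had 17 and 4 UMIs (5.63, 1.84 to 23.01), and Id2, which promotes effector fate, 11 and 4 (3.64, 1.08 to 15.7). Hcst, the signalling adaptor of the Nkg2d receptor, had 42 and 18 UMIs (3.09, 1.74 to 5.71). Gimap7, a GTPase of lymphocytes, had 27 and 10 (3.58, 1.68 to 8.28), Rac2, a regulator of the lymphocyte cytoskeleton, 51 and 24 (2.82, 1.70 to 4.78), and Ptprc, the pan-leukocyte phosphatase CD45, 42 and 22 (2.53, 1.48 to 4.45). Of 19 structural and Gimap genes compared, these 4 were at least 2-fold higher and 0 were 2-fold lower. Among all 743 genes compared, 8.08% were 2-fold higher and 7.27% were 2-fold lower. In Treated 1 the ratios of Hcst and Gimap7 were 2.91 and 3.33, but those of Rac2 and Ptprc were 0.832 and 0.555, each from 9 UMIs or fewer. Ccr2, a receptor for monocyte-attracting chemokines that effector T cells also use, had 13 and 3 UMIs (5.74, 1.58 to 31.4), and H2-Q7, a nonclassical MHC class I gene, 21 and 6 (4.64, 1.81 to 14.0).

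Genes of receptor signalling did not part the subsets as a group, with 195 and 226 UMIs and a ratio of 1.14 (95% counting interval 0.939 to 1.39). Cell cycle genes had 109 and 73 UMIs, a ratio of 1.98 (1.46 to 2.70), in which Hmgb2, a chromatin protein of cycling cells, had 30 and 13. A single cell held 14 of these Hmgb2 UMIs. H2afz, a further gene of the list, had 31 and 18. Without the 3 cells of over 3000 UMIs, 1 of them cytotoxic, the ratios were 1.80 for the cell cycle list, 0.455 for the naive and memory list and 5.63 for the effector list. Transcripts of Mki67 or Top2a, which mark dividing cells, were seen in 7 of 108 T cells, 6 of them in Treated 2. There each of these genes had 2 UMIs in the cytotoxic and 2 in the other cells. In Treated 1 the cell cycle list had 10 and 7 UMIs, a ratio of 1.19 (0.409 to 3.68).

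A small set of T cells carried transcripts of regulatory or activated T cells. Of the 6 genes Il2ra, Ctla4, Ikzf2, Tnfrsf18, Tnfrsf4 and Izumo1r, 2 or more UMIs were found in 1 of 10, 0 of 1, 1 of 16 and 12 of 81 cells. The Control 1 cell had 11 UMIs of these genes, and the highest cell of Treated 2 had 14. Of the 12 cells of Treated 2, 2 were cytotoxic, 1 was a Cd4 cell, 0 were Cd8 cells and 11 had neither coreceptor. Foxp3, the defining transcription factor of regulatory T cells, was at 0 UMIs in all 4 libraries, so the cells are described here by their transcripts and not named. This set of 6 genes was chosen from a list of 12 regulatory genes after the values were seen. Of the others in that list, Lrrc32, Il10 and Ikzf4 were also at 0 UMIs, Nrp1 had 2 and Tnfrsf9 had 5.

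Helper and checkpoint transcripts were sparse. Of 16 helper genes 8 were detected, with 4, 1, 6 and 61 UMIs in all, and the cytokines Il4, Il5, Il13 and Il21 were at 0. Tox, a factor of exhausted and memory cells, had 0, 0, 4 and 30 UMIs and was seen in 19 cells, Pdcd1 (PD-1) had 0, 0, 1 and 4, and Lag3 and Tigit had none. Of the 12 genes in the list 9 were detected, at 280, 0, 725 and 691 CPM in all. Ncr1, Klrb1c and Klre1, genes of natural killer cells, were at 0 in the T cells of every library. The gate required Cd3 or T cell receptor UMIs and limited Tyrobp and Fcer1g, so this absence was partly set in advance. The interferon-response list, in contrast, held 31 detected genes of 32 and 5461, 7503, 5077 and 4500 CPM, led by Ifi27l2a with 17, 3, 17 and 100 UMIs. Ifi27l2a was not particular to T cells: it stood at 2380, 3215, 1541 and 1213 CPM there and at 2086, 2037, 1807 and 1440 CPM in myeloid cells. B cells of Treated 1 and 2 had 1107 and 864 CPM. MHC class I genes summed to 4060, 3215, 6074 and 6453 CPM, against 605 to 922 CPM in the other kept cells. Those were mostly keratin-positive, and B and myeloid cells carried these genes as well. In Treated 1 and 2, H2-D1 stood at 907 and 1504 CPM in T cells. It stood at 934 and 1155 CPM in B cells and 967 and 1340 CPM in myeloid cells. For H2-K1 the values were 1904 and 1528, 798 and 1120, and 773 and 869 CPM, in the same order.

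The chaperones and survival genes on which the study centers were measured at low counts. Hsp90ab1, the constitutive cytosolic HSP90, had 11, 3, 15 and 151 UMIs in the T cells, or 1540, 3215, 1360 and 1832 CPM. In the keratin-positive cells of the same libraries it stood at 5443 to 6290.0 CPM, above the T cells of each library. Other immune cells of Treated 1 and 2 were closer to the T cells, at 1985 and 1457 CPM in B cells and 2046 and 1430 CPM in myeloid cells. Hsp90aa1, the stress-inducible form, had 4, 2, 4 and 29 UMIs, or 560, 2144, 363 and 352 CPM. Bcl2, which blocks apoptosis, had 1, 0, 0 and 26 UMIs, seen in 20 of 81 cells of Treated 2, where it stood at 315 CPM against 89.1 CPM in B cells and 9.29 CPM in keratin-positive cells. Myc had 1 UMI, in Treated 1, Hsf1 had 4, Cd44 9, Klf4 2 and Bmi1 1 over all T cells, and Notch1 and Aldh1a1 had 0. Of these genes only Hsp90ab1 had enough counts for the test between Control and Treated T cells that follows, and it did not pass.

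Summed over the T cells of each library, the counts were 7142, 933, 11031 and 82439 UMIs. Of 121 genes with enough counts for edgeR's quasi-likelihood test, 3 (2.48%) were higher in Treated at an adjusted p (Benjamini-Hochberg) under 0.05 and 0 were lower, with 18 genes at an unadjusted p under 0.05. All 3 encode hemoglobin chains, the oxygen carriers of red blood cells. Ribosomal protein genes made up 65 of the genes tested. Of the listed genes only 11 outside the erythroid list could be tested, and 0 passed.

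Hbb-bs had 6, 0, 756 and 2918 UMIs, a log2 change of 6.50 (edgeR, adjusted p = 0.0141). Hba-a1 had 3, 0, 510 and 1980 UMIs (6.90, adjusted p = 0.0141), and Hbb-bt 0, 0, 30 and 348 UMIs (fitted value 9.62, adjusted p = 0.0141), where the Control libraries were at 0, so that its fitted value depends on the prior count. Both Treated libraries stood above both Control libraries in each gene, as for 13.2% of the 121 genes, while both stood below for 44.6%, so that 57.9% showed no overlap between the groups. Over the 8 hemoglobin genes the share of T cell UMIs was 0.126%, 0%, 11.9% and 6.42%.

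The hemoglobin transcripts were concentrated in few cells and were not limited to T cells. They exceeded 5% of UMIs in 3 of 16 T cells of Treated 1 and 6 of 81 of Treated 2, which held 96.3% and 91.1% of the hemoglobin UMIs of their libraries' T cells, and in 0 cells of the Control libraries. These cells ranged from 8.14 to 74.1% hemoglobin, and 1 of the 9 was cytotoxic. In the same Treated libraries hemoglobin made up 8.80% and 7.21% of UMIs in B cells, 9.25% and 11.1% in myeloid cells and 1.04% and 0.499% in keratin-positive cells. In the Control libraries it made up 0.0279% and 3.96% in myeloid cells and 0.0268% and 0.0177% in keratin-positive cells. Without the 9 cells, the T cell share of hemoglobin was 0.580% in Treated 1 and 0.640% in Treated 2, and edgeR called 0 of 113 genes (16 at an unadjusted p under 0.05); DESeq2 on all T cells called 3. Red blood cells had been lysed before capture, and the part of free or attached red cell RNA in this result was not tested.

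**Figure D5:**
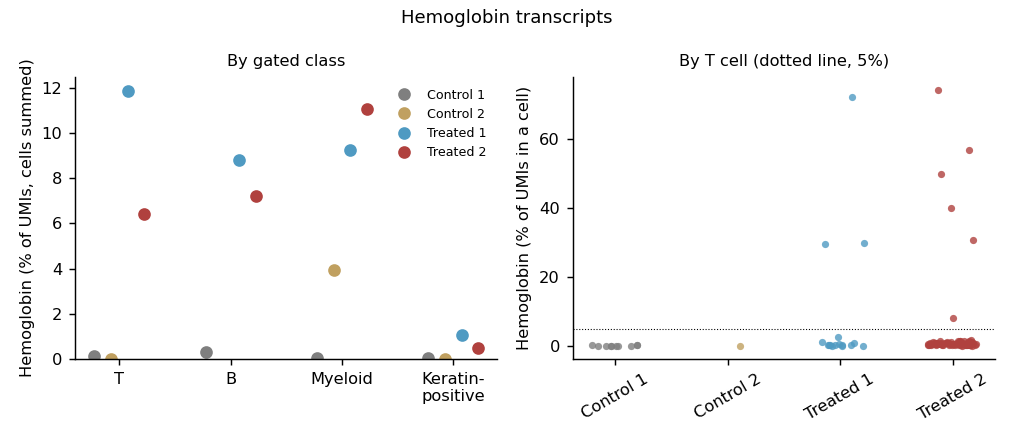
Left, hemoglobin genes as a percentage of all UMIs in each gated class and library; right, the same percentage in each T cell, with a dotted line at 5%. The T, B and myeloid cells of the Treated libraries lie between 6.42% and 11.9%, and 9 single T cells, all Treated, lie above 5%.

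Among genes that missed the threshold, S100a6, a calcium-binding protein, had 57, 3, 23 and 239 UMIs and a log2 change of -1.10 (edgeR, adjusted p = 0.162). It passed in 4 of 14 alternatives, among them the replicate block (adjusted p = 0.0105), and its change was 1.08 without Control 1 (adjusted p = 0.386). H2-K1, a classical MHC class I gene, had 4, 0, 21 and 126 UMIs and a log2 change of 2.05 (adjusted p = 0.204). Thy1, a surface protein of T cells, had 9, 1, 3 and 11 UMIs, or 1260, 1072, 272 and 133 CPM, and fell under the count filter. Its level was higher in both Control libraries than in both Treated libraries. Of the 4 alternatives in which it could be tested it passed in 1, the mitochondrial limit of 20% (log2 change -2.65, edgeR, adjusted p = 0.0144), and the adjusted p was 0.758 with no low-count filter. These genes were named after their values were seen.

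Apart from hemoglobin, the lists of other cell types held few UMIs in the T cells, though the tumor list was not low relative to depth in the Control libraries. The gate limited its keratin, B cell and myeloid genes, and these belong to the tumor, B and macrophage lists. Low counts of these lists were thus partly set in advance. The B and plasma cell list held 0, 0, 69 and 33 UMIs and the dendritic list 3, 0, 55 and 13, and 1 cell of Treated 1 alone had 52 UMIs of Cst3 and 47 of Cd74, which are abundant in antigen-presenting cells. C1qa of macrophages and all 6 platelet genes were at 0, and S100a9 of neutrophils had 22 UMIs in all, 18 of them in 1 cell. The macrophage list held 2, 0, 14 and 35 UMIs, the neutrophil list 0, 0, 5 and 37, and the list of stroma and endothelium 0, 0, 2 and 7. The part of these transcripts in the results above was not tested. The tumor list held 14, 2, 7 and 35 UMIs, or 1960, 2144, 635 and 425 CPM, so that it was higher in the T cells of the Control libraries than in those of the Treated libraries. In the other kept cells, which were mostly keratin-positive, it stood at 7456, 4159, 5718 and 5060 CPM. Xist (chromosome X: 103460366 to 103483254), the RNA that silences one X chromosome in females, had 2, 0, 1 and 21 UMIs in the T cells, and stood at 255 CPM in those of Treated 2, 364 CPM in its B cells and 0.423 to 0.846 CPM in the keratin-positive cells of the 4 libraries. The myeloid cells held 82.1, 97.9, 116 and 87.4 CPM. Xist was examined after its values were seen.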

How the data were processed

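Single-cell RNA-seq libraries were made on the 10x Genomics Chromium 3′ platform. The authors deposited UMI counts per gene and barcode, made with Cell Ranger (cellranger 7.1.0 per the file headers); the submitters' processing notes name build mm10, while the paper's methods name a human build, and the mouse gene identifiers of the files fit the former. Gene coordinates are from GENCODE M21, by gene identifier. Each deposited count table was read as it stood, with 32285 genes. Cells were gated per cell as described, and CPM values are a class's summed counts per 1000000 UMIs, hemoglobin included unless stated. B cells, myeloid cells and keratin-positive cells met their own gate (2, 4 and 3 UMIs of its genes) and no other. Cells are not replicates, so shares were compared over libraries by exact permutation tests and genes by edgeR 4.0.16 (TMM, filterByExpr, quasi-likelihood test, Benjamini-Hochberg) on counts summed per library, with DESeq2 1.42.0 as an alternative (R 4.3.3, scipy 1.17.1, scanpy 1.11.5 for Scrublet). Models between Cd8 and Cd4 and between cytotoxic and other T cells were not fitted, as fewer than 2 libraries held 10 cells of each. Simulated counts with known changes were passed through the edgeR fit. They gave every gene the same dispersion, and no conclusion on the calls above is drawn from them. Names were given to listed genes with at least 5 UMIs over all T cells, to up to 10 called genes per direction, to the 15 genes highest over other kept cells (at least 20 UMIs) and to genes of the study; a few genes that met these rules are not reported here. All 24 gene lists (391 genes, 386 in the files) were used. The members and lists were chosen with earlier results of these data known. Replicate numbers come from the titles; deviations of same-numbered libraries correlated at 0.350 over 83 genes in T cells and at 0.381 over 1381 genes in other kept cells, and with 2 pairs the numbers were not taken to pair the libraries. Of 113 alternative settings tried, the effects are given after the text.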

Additional observations from a re-analysis of the deposited data

How the results depend on the processing

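Depth and cell number set the limits here: Control 2 rests on 1 T cell. With at least 500 genes per cell T cell shares were 0.113%, 0.18%, 0.127% and 5.16%, from 1, 1, 2 and 49 T cells. The difference in T cell share (3.51 percentage points) kept its sign in 12 of 13 alternatives. It was -0.135, or close to none, over kept cells with few keratin UMIs. Leaving out 1 library gave 0.240 (without Treated 2) to 6.79. Under the replicate block it was 3.51 as well, from -0.218 and 7.25 within the number pairs (exact permutation test, p = 1). The Cd8 difference (-3.85 points) reversed to 9.18 with at least 500 genes per cell and to 4.98 with at least 2 Cd8 UMIs, and ran from -18.9 (without Control 2) to 11.1 (without Control 1) when 1 library was left out, with 1.05 without Treated 1. The Cd4 difference kept its sign in all 12 alternatives, but the Control libraries held 0 Cd4 cells in each, so it could not turn negative. The cytotoxic difference kept its sign in all 15. Its single cell held Control 2 at 100% wherever that library was kept, so this is a weak check. Leave-one-out ranges were 6.25 to 7.41 points for Cd4 and -52.7 to -32.7 points for the cytotoxic share. The cytotoxic difference was -1.53 with at least 500 genes per cell, and with at least 3 gate UMIs Treated 1 (77.8%) lay above Control 1 (75%). The Cd4 difference was 1.64 with no keratin UMI, 1.85 after thinning and 4.08 with at least 500 genes, each with 0 Cd4 cells in Treated 1; no share passed its test. The count of 3 called genes was 0 without cells of over 5% hemoglobin, 0 without mitochondrial and hemoglobin genes, 11 at a mitochondrial limit of 20%, 5 with no keratin UMI, 8 under the replicate block, 1 without a low-count filter and 3 to 11 when 1 library was left out (11 without Control 1, 10 without Control 2 and 10 without Treated 2); the cause was not tested. Hba-a1 and Hbb-bs passed in 12 of 14 alternatives, at log2 changes of 3.32 to 13.2 and 2.03 to 13.7 and adjusted p of 2.52e-30 to 0.758 and 2.55e-34 to 0.758. Between cytotoxic and other T cells, 114 genes differed 2-fold, and 63 of 394 without shared barcodes, where fewer cells remained. No model between Cd8 and Cd4 or between cytotoxic and other T cells could be fitted under any setting, as fewer than 2 libraries held 10 cells of each. Alternatives on Scrublet, hemoglobin, shared barcodes, cells over 3000 UMIs and the keratin denominator were chosen after seeing the data.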

Other observations

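Trafficking and activation genes of the T cells, for which values are given in library order (Control 1 and 2, then Treated 1 and 2), were sparse. Cxcr3, a receptor for interferon-induced chemokines, had 1, 1, 3 and 18 UMIs and was seen in 20 of 108 cells, and Itga4, an integrin chain, had 1, 0, 3 and 32 UMIs in 30 cells. Icos, a costimulatory receptor of activated T cells, had 2, 0, 3 and 11 UMIs in 14 cells. Ccr7, which directs naive cells to lymph nodes, was seen in only 3 cells, although Lef1 was seen in 31 and Il7r in 24. Of 16 trafficking receptors 13 were detected, and of 21 activation genes 17.

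Several genes outside the lists had large ratios between cytotoxic and other T cells of Treated 2 and are named after their values were seen. Ctla2a, a cysteine protease inhibitor, had 29 and 7 UMIs (ratio 5.49, 95% counting interval 2.35 to 14.8), and 7 and 0 in Treated 1. Hip1 had 15 UMIs in 10 cytotoxic cells and 1 in the others. AW112010 had 66 and 33 UMIs (2.65, 1.72 to 4.16). In both Treated libraries Cd52, a surface glycoprotein of lymphocytes, was more frequent in the cytotoxic cells, at 105 and 72 UMIs in Treated 2 (1.93, 1.42 to 2.65) and 28 and 10 in Treated 1.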
